A study of Mus musculus with 9 samples.

Results

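The miR-34 family was followed through small RNA libraries of mouse back skin as 5 mature miRNAs: mmu-miR-34a-5p from the miR-34a locus, and mmu-miR-34b-5p, mmu-miR-34b-3p, mmu-miR-34c-5p and mmu-miR-34c-3p from the miR-34b/c locus. They were picked by name and are 5 of the 1129 miRNA rows of the deposited table. The skin came from female C57BL/6 mice aged 6 months, an inbred laboratory strain, and the 9 libraries form 3 groups of 3. The diabetic group is skin of a diabetic mouse model on the same strain, the day 7 group is skin from the edge of a wound made with an 8 mm punch under pentobarbital anesthesia, and the day 0 group is the skin that the punch removed. How diabetes was induced is not given in the sources used here. Which day the diabetic samples come from is unsettled, since their titles read T7, the matching columns read T0, and their treatment text describes skin taken at wounding. The diabetic model and the day of sampling therefore cannot be told apart in that group. The labels speak of 9 mice but do not tie each library to an animal, so p-values measure the spread between these libraries.

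A miRNA is a short RNA that guides repression of messenger RNAs, mostly through its seed, bases 2 to 8 from the 5′ end. Each hairpin precursor can give a mature RNA from either arm, 5p or 3p, and one arm usually dominates as the guide strand. The transcription factor p53 activates both miR-34 loci after DNA damage and other stress. The 5p strands repress regulators of cell division and survival, among them Cdk6, Met, Bcl2 and Notch1, and in keratinocytes the p53 relative p63 represses the family. In airway epithelium miR-34b/c and the related miR-449 are abundant and are needed for motile cilia. No p53 activity was measured here, so the link to p53 is background.

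The mature sequences, credited to RefSeq on build GRCm38.p6, are shown because the seed differs between arms and can be shared between loci. Capitals mark the seed.
miR-34a-5p: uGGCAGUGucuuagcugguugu
miR-34b-5p: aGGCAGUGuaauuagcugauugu
miR-449a-5p: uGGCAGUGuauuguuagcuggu
miR-449c-5p: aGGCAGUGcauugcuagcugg
miR-34b-3p: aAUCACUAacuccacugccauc
miR-34c-3p: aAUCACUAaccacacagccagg
miR-34a-3p: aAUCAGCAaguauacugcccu
Of the 5 members, 4 were matched in the RefSeq table, all but miR-34c-5p, so its sequence and seed are not shown. The seed GGCAGUG is shared by miR-34a-5p, miR-34b-5p and both miR-449 strands, and AUCACUA by miR-34b-3p and miR-34c-3p. miR-34b-3p and miR-34c-3p carry the same letter at 17 of 22 positions, with the first 10 identical. Similar strands can share reads when enough mismatches are allowed, and how mismatches were handled is not given in the sources used here. miR-34b-5p could not be compared with miR-34c-5p, whose sequence is not shown.

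On GRCm38.p6 miR-34a-5p lies at chr4:150068473-150068494 on the plus strand. The Mir34a hairpin overlaps an exon of Gm37795, a transcript still to be checked by experiment, on the same strand (GENCODE M21). Mir34b and Mir34c lie on the minus strand of chromosome 9, with 451 bases between the hairpins, inside the span of the protein-coding gene Btg4, which runs on the opposite strand, and outside its exons. miR-34b-5p is at chr9:51103610-51103632, miR-34b-3p at chr9:51103574-51103595 and miR-34c-3p at chr9:51103044-51103065. The submitters' processing notes name build mm9, and the count table holds no coordinates.

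Library totals ran from 2537167 to 5453539 miRNA counts. Levels are given as CPM, counts set against the library total and scaled by TMM, a scaling that sets a typical miRNA to no change, so a level is relative to the other miRNAs. Fold changes and adjusted p-values come from edgeR's quasi-likelihood test over 447 miRNAs, with Benjamini-Hochberg adjustment over all of them and a threshold of 0.05. In whole skin, fewer cells that make a miRNA and less of it per cell cannot be told apart.

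miR-34c-5p was the main member in every library. It made up 64.7% ± 5.87 of the 5 members' counts in the diabetic group, 88.5% ± 3.70 at day 7 and 75.1% ± 2.55 at day 0 (SD, n = 3 each). miR-34a-5p made up 33.8% ± 5.57, 9.47% ± 4.12 and 22.05% ± 2.49 in the same groups, and the other 3 members together 1.496% ± 0.299, 2.01% ± 0.420 and 2.87% ± 0.635. At these depths the 95% exact binomial (Clopper-Pearson) interval of the miR-34c-5p share was 55.7% to 60.9% in the lowest library, diabetic replicate 1, and 90.2% to 92.1% in the highest, day 7 replicate 1. Intervals cover counting error only. The family as a whole was a small part of the libraries, with 0.0269% to 0.0335% of counts in the diabetic group, 0.0384% to 0.0875% at day 7 and 0.0334% to 0.0365% at day 0.

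**Figure D1:**
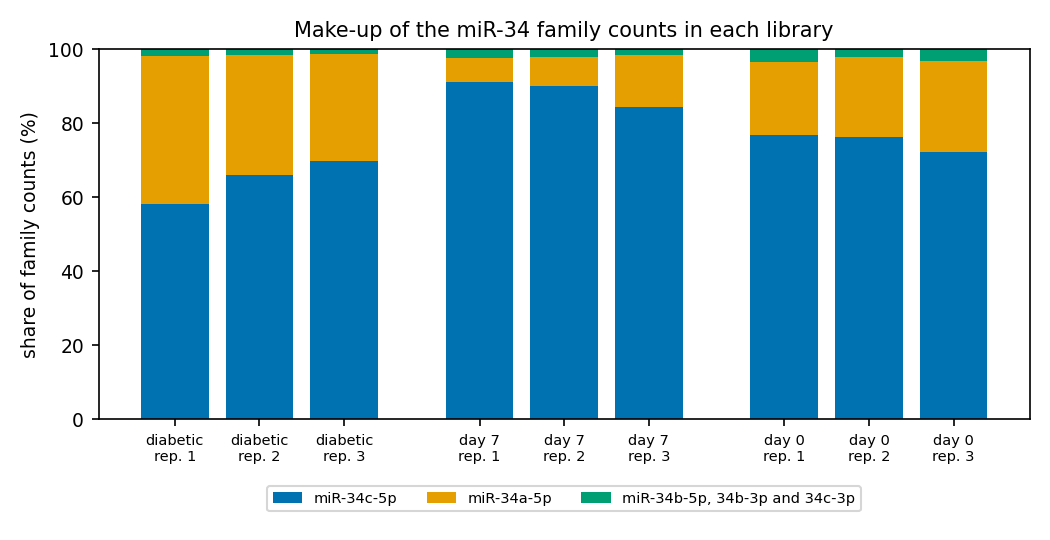
Share of the 5 members' counts (vertical axis, %) held by miR-34c-5p, miR-34a-5p and the other 3 members in each of the 9 libraries. The miR-34c-5p share lies between 58.3% and 69.8% in the diabetic libraries, between 84.3% and 91.2% at day 7 and between 72.1% and 76.8% at day 0.

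miR-34c-5p rose at the day 7 wound edge relative to day 0, and no other member passed the test there. mmu-miR-34c-5p, the guide strand of its hairpin, stood at 957, 1038 and 395 CPM in day 7 replicates 1, 2 and 3, against 222, 272 and 229 CPM in day 0 replicates 1, 2 and 3. All 3 day 7 libraries lay above all day 0 libraries, and day 7 replicate 3 lay far below the other 2. The log2 fold change was 1.72 ± 0.33 (SE), a 3.31-fold rise with an adjusted p of 0.00831 (edgeR, n = 3 per group). Of all 447 miRNAs tested, 8.05% rose and 4.7% fell in this comparison, and in 30.4% the groups did not overlap. miR-34c-5p ranked 16 by p. Its call held in all 19 alternatives, with log2 fold changes between 1.07 and 1.996 and a largest adjusted p of 0.0491.

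mmu-miR-34a-5p had 68.1, 89.3 and 66.4 CPM in the day 7 libraries, against 57.4, 76.8 and 78.5 CPM in the day 0 libraries. These ranges overlap. Its log2 fold change was 0.07 ± 0.21 (adjusted p = 0.831, edgeR), and the sign turned under 8 of 19 alternatives, with -0.45 when libraries were scaled by total counts. No alternative called it in this comparison, with a smallest adjusted p of 0.124.

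The other strands of the miR-34b/c locus were scarce. mmu-miR-34b-3p, whose seed differs from that of the 5p strands, had 11.8, 13.7 and 4.81 CPM at day 7 (40, 41 and 10 counts), against 4.74, 5.19 and 6.77 CPM at day 0 (19, 29 and 20 counts). Its first 2 day 7 libraries lay above all day 0 libraries and day 7 replicate 3 lay among them, and the test was not passed (log2 difference 0.90 ± 0.38, adjusted p = 0.147, edgeR). It was called in 1 of 18 alternatives, without day 7 replicate 3 (1.15, adjusted p = 0.0378, edgeR), and its values ran down to 0.19 (adjusted p = 0.711) with limma and to 0.54 (adjusted p = 0.492, edgeR) without day 7 replicate 2. mmu-miR-34c-3p, the minor strand of the miR-34c hairpin, had 18, 22 and 3 counts at day 7 and 12, 11 and 6 counts at day 0, and 1.06 ± 0.55 as its log2 fold change (adjusted p = 0.244, edgeR). mmu-miR-34b-5p, which shares the miR-34a-5p seed, had 26, 10 and 2 counts at day 7 and 8, 3 and 3 counts at day 0, and failed the low-count filter. Fitted without that filter it gave 1.72 ± 0.63 (adjusted p = 0.0792, edgeR).

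**Figure D2:**
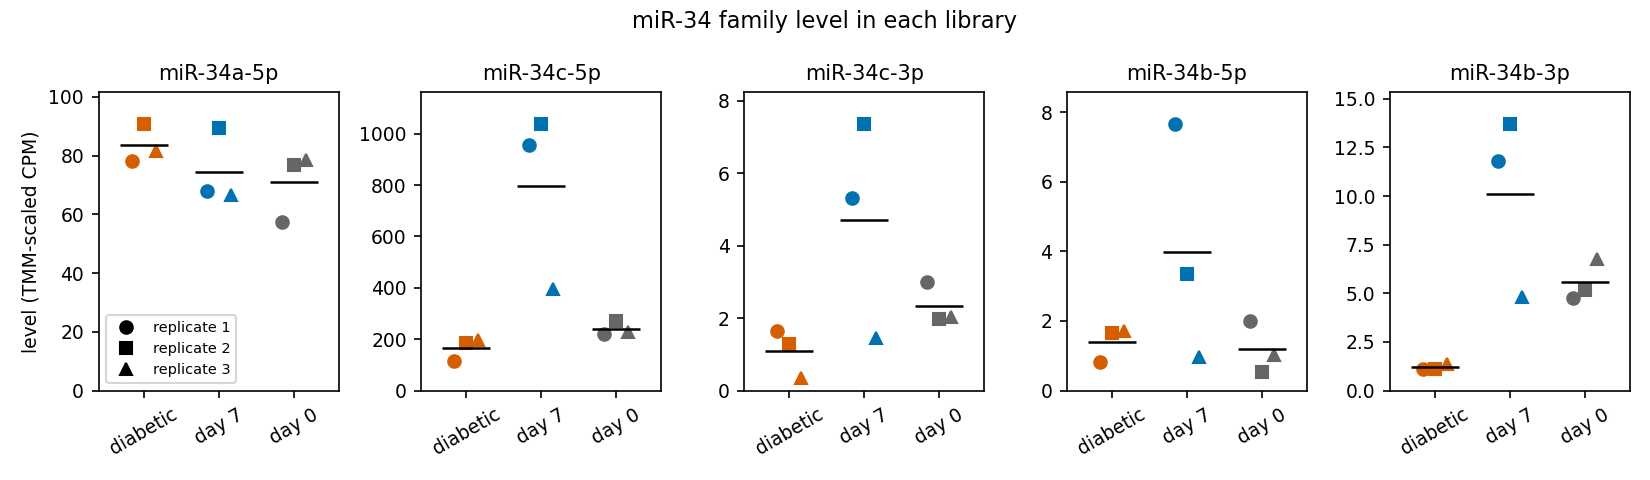
Level of each member (vertical axis, TMM-scaled CPM, linear from 0, scale set per panel) in every library of the diabetic, day 7 and day 0 groups; symbols mark the replicate and lines the group mean. For miR-34c-5p the day 7 libraries at 957 and 1038 CPM stand apart from day 7 replicate 3 at 395 CPM, while miR-34a-5p stays between 57.4 and 90.8 CPM in all 9 libraries.

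miR-34c-5p was lower in the diabetic group than in the day 7 wound edge, while miR-34a-5p was not called. miR-34c-5p had 114, 185 and 196 CPM in diabetic replicates 1, 2 and 3, so all 3 diabetic libraries lay below the lowest day 7 library. It was 4.83-fold lower than in the day 7 wound edge (log2 fold change -2.27 ± 0.34, adjusted p = 0.00130, edgeR, n = 3 per group). miR-34b-3p had 1.10, 1.10 and 1.38 CPM in the diabetic libraries, from 8, 6 and 4 counts, which places all 3 below the lowest day 7 library as well. It was 8.63-fold lower (log2 fold change -3.11 ± 0.44, adjusted p = 0.00114, edgeR). miR-34c-3p had 12, 7 and 1 counts in the diabetic libraries, with levels that overlap those of day 7, and its fitted log2 fold change was -1.98 ± 0.58 (adjusted p = 0.0326, edgeR). These 2 scarce strands entered the test through other groups than the diabetic one. miR-34b-3p was over the low-count limit in 3 day 7 and 3 day 0 libraries, miR-34c-3p in 2 day 7 libraries and 1 day 0 library, just the 3 needed, and both in 0 diabetic libraries. Their differences from the diabetic group are therefore given as descriptions, and miR-34b-5p, the remaining strand, did not enter the test.

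Against these calls, 12.1% of the 447 miRNAs fell and 7.83% rose in the diabetic group relative to day 7, 19.9% in all, and 20.8% had diabetic libraries below all day 7 libraries. The call of miR-34c-5p held in all 19 alternatives. Both scarce strands were over the low-count limit in 0 diabetic libraries, so their calls remain descriptions whatever the alternative. The call of miR-34b-3p held in all 18 alternatives that gave it a value. That of miR-34c-3p held in 9 of 17. It was lost without day 0 replicate 2 (adjusted p = 0.0593), day 7 replicate 1 (0.132) or 2 (0.157), or diabetic replicate 2 (0.121) or 3 (0.0882), and with scaling by total counts (0.107), total counts without miR-21a-5p (0.0547) and limma (0.145), the others by edgeR. This comparison shares its day 7 libraries with the one above, so their results are not independent.

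miR-34a-5p had 78.2, 90.8 and 81.7 CPM in the diabetic libraries, a range that overlaps those of both other groups. Relative to day 7 its log2 fold change was 0.16 ± 0.21 (adjusted p = 0.612, edgeR), and it passed with scaling by total counts (0.81, adjusted p = 0.0151, edgeR) and with limma on TPM (0.80, adjusted p = 0.0118). Those settings moved the median log2 fold change of all miRNAs to 0.61 and 0.56, against -0.02 under TMM. miR-34b-5p, not tested, had 6, 9 and 5 counts in the diabetic libraries, and without the low-count filter its log2 fold change relative to day 7 was -1.53 ± 0.61 (adjusted p = 0.104, edgeR).

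No member passed in the diabetic group against day 0, where 0% of the 447 miRNAs were called by edgeR, 40 had an unadjusted p under 0.05, DESeq2 called 5 and a fit blocked on replicate number called 1, which was no member. The lowest adjusted p among the members was that of miR-34b-3p, which ranked 2 by p among all miRNAs. This strand was over the low-count limit in 0 diabetic libraries, so its difference is given here too as a description. Its mean was 1.19 ± 0.161 CPM in the diabetic group and 5.57 ± 1.06 CPM at day 0 (SD, n = 3 each), with no overlap, and the log2 fold change was -2.21 ± 0.45 (adjusted p = 0.0954, edgeR). Of 18 alternatives 3 called it: with DESeq2 (adjusted p = 0.0119), without the low-count filter (0.00183, edgeR) and without day 7 replicate 3 (0.0311, edgeR), and its adjusted p ran up to 0.634.

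miR-34c-5p averaged 165 ± 44.5 CPM in the diabetic group and 241 ± 27.4 CPM at day 0, and its diabetic libraries lay below all day 0 libraries. The log2 fold change of -0.55 ± 0.33 did not pass (adjusted p = 0.680, edgeR), nor did that of miR-34c-3p (-0.92 ± 0.60, adjusted p = 0.680, edgeR), whose ranges did not overlap either. Over all 447 miRNAs, 5.59% had diabetic libraries below all day 0 libraries and 8.28% above. miR-34a-5p averaged 83.6 ± 6.49 CPM in the diabetic group and 70.9 ± 11.7 CPM at day 0, with overlapping ranges (0.24 ± 0.21, adjusted p = 0.763, edgeR). For miR-34b-5p the means were 1.40 ± 0.503 and 1.18 ± 0.744 CPM in the diabetic and day 0 libraries.

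**Figure D3:**
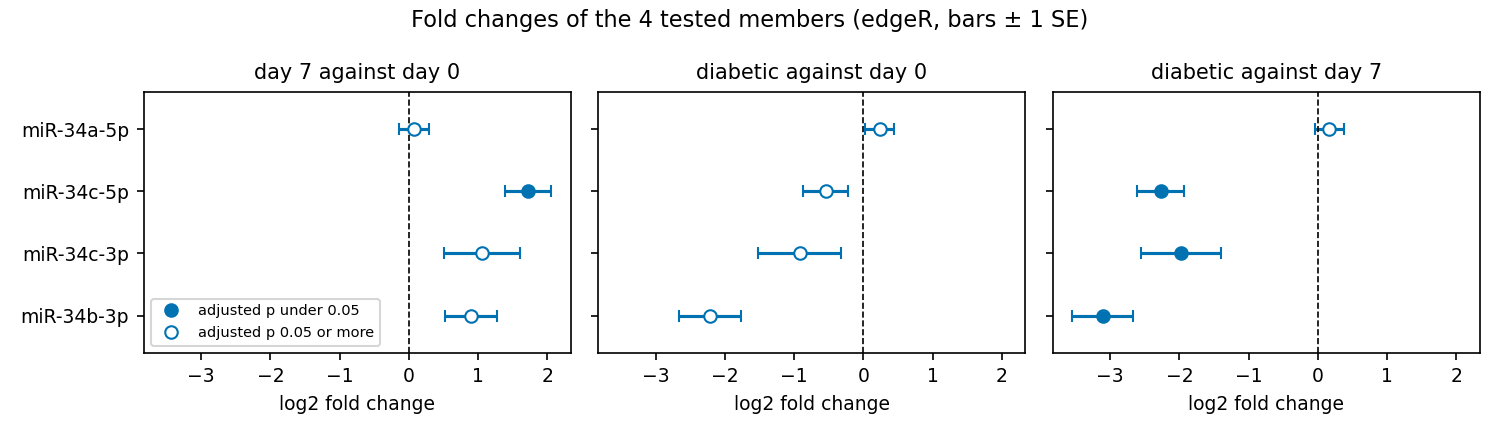
Log2 fold change of the 4 tested members (horizontal axis) in each comparison, first-named group over the other, from edgeR with bars of ± 1 SE; filled points have an adjusted p under 0.05. The 3 miR-34b/c strands lie right of 0 for day 7 against day 0, where miR-34c-5p alone was called. They lie left of 0 for the diabetic group against day 7. miR-34b-3p and miR-34c-3p were over the low-count limit in 0 diabetic libraries, so their points in the comparisons with the diabetic group are descriptions. miR-34a-5p lies within 0.24 of 0 in all 3 panels.

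In order of group mean, miR-34c-5p, miR-34b-3p and miR-34c-3p were highest at day 7, then at day 0, then in the diabetic group. For each of these 3 strands the step between day 0 and the diabetic group was not called. The step between day 7 and day 0 was called for miR-34c-5p alone. In day 7 replicate 3, miR-34c-3p at 1.44 CPM lay below all day 0 libraries, and miR-34b-3p at 4.81 CPM lay among them. Both were over the low-count limit in 0 diabetic libraries. For miR-34a-5p the order was diabetic, day 7 and day 0, with no step called.

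The loci were then compared inside each library, which removes the library scaling. Counts of miR-34c-5p per count of miR-34a-5p were 1.46, 2.04 and 2.41 in the diabetic libraries, 14.1, 11.6 and 5.95 at day 7, and 3.87, 3.55 and 2.91 at day 0. The 3 groups did not overlap in this ratio. On the log2 scale, with 0.5 added to each count, the ratio averaged 0.95 ± 0.37 in the diabetic group, 3.31 ± 0.65 at day 7 and 1.77 ± 0.21 at day 0 (SD, n = 3 each). An exact permutation test over the 1680 assignments of the 9 libraries to 3 groups gave p = 0.00357, the smallest it can give. That test treats the libraries as unpaired. It takes no account of the likeness between same-numbered libraries described below.

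Between pairs of groups the log2 ratio was higher by 1.53 ± 0.40 (SE) at day 7 than at day 0, differed by -0.83 ± 0.24 in the diabetic group relative to day 0 and by -2.36 ± 0.43 in the diabetic group relative to day 7. The exact two-sided permutation p was 0.1 in each of the 3, and 0.1 after adjustment over them, which is the smallest that 3 libraries against 3 allow. Without day 7 replicate 3 the first and last of these differences became 1.90 and -2.73. Summed counts of all 4 miR-34b/c strands in place of miR-34c-5p gave 1.51, -0.85 and -2.36.

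**Figure D4:**
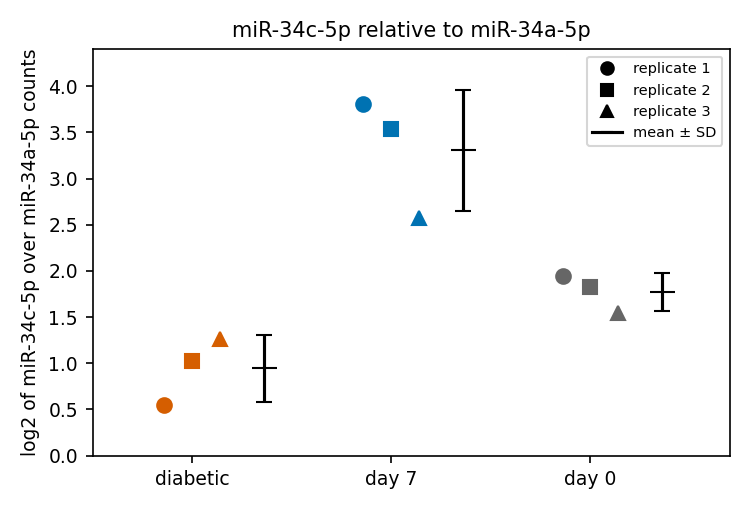
Log2 ratio of miR-34c-5p to miR-34a-5p counts (vertical axis, 0.5 added to each count) in every library, with the group mean ± SD beside the points. Day 7 libraries lie between 2.57 and 3.81, above the day 0 libraries at 1.54 to 1.95, which lie above the diabetic libraries at 0.55 to 1.26.

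Arm usage differed between the 2 hairpins of the miR-34b/c locus. From the miR-34c hairpin the 5p strand prevailed in every library, with 2408 counts of 5p to 20 of 3p in the pooled diabetic libraries, 7173 to 43 at day 7 and 3086 to 29 at day 0. From the miR-34b hairpin the 3p strand, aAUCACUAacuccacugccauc, was the more frequent in each day 7 and day 0 library. The 5p share of the miR-34b reads was 42.9%, 60.0% and 55.6% in diabetic replicates 1, 2 and 3, against 39.4%, 19.6% and 16.7% at day 7 and 29.6%, 9.38% and 13.0% at day 0. All 3 diabetic libraries lay above all others, but they rest on 14, 15 and 9 reads of miR-34b, and the exact binomial interval of diabetic replicate 1 runs from 17.7% to 71.1%. Pooled, 20 of 38 reads were 5p in the diabetic group, 38 of 129 at day 7 and 14 of 82 at day 0. Whether any of these 5p reads came from the far more frequent miR-34c-5p was not tested.

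The other miRNAs with the GGCAGUG seed were near the detection limit. miR-449a-5p had 17, 4 and 5 counts in the diabetic libraries, 4, 3 and 1 at day 7 and 3, 13 and 3 at day 0. miR-449c-5p had 3 counts in all 9 libraries together, and miR-34a-3p, the minor strand of the miR-34a hairpin, had 6. Neither the miR-449 strands nor miR-34a-3p passed the low-count filter. Together the miR-34 and miR-449 5p strands reached 196 to 282 CPM in the diabetic group, 464 to 1132 CPM at day 7 and 282 to 352 CPM at day 0, nearly all of it miR-34c-5p and miR-34a-5p.

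Other miRNAs tied to p53 were called in 1 comparison at most. Of 12 listed as induced or processed through p53, 11 were tested, and none was called at day 7 against day 0, where 12.8% of all 447 were (median log2 fold change -0.05, against 0.08 over all miRNAs), or in the diabetic group against day 0 (0.03, against 0.04). In the diabetic group against day 7, 1 rose and 1 fell, a share of the list near the 19.9% called over all miRNAs (median 0.18, against -0.02 over all). miR-141-3p of the epithelial miR-200 family rose, at 204 ± 67.0 CPM in the diabetic group and 108 ± 31.3 CPM at day 7 (0.91 ± 0.27, adjusted p = 0.0371, edgeR). miR-215-5p, a relative of miR-192, fell by 4.25 on the log2 scale (SE 1.01, adjusted p = 0.0129, edgeR). It had 0.833 ± 0.450 CPM in the diabetic group and 17.7 ± 20.6 CPM at day 7, where the SD exceeds the mean. Its diabetic and day 7 ranges overlap. Its diabetic mean lies below the low-count limit of about 2.54 CPM, so miR-215-5p is given here as a description too. Its call held in 14 of 17 alternatives and was lost when day 7 replicate 1 was left out (-2.73, adjusted p = 0.0925, edgeR) or diabetic replicate 2 (-4.19, adjusted p = 0.0555, edgeR), and with limma (-2.03, adjusted p = 0.0623). miR-141-3p held in 14 of 19 and lost its call without day 7 replicate 1 (adjusted p = 0.124, edgeR) or 2 (0.115), without diabetic replicate 2 (0.0532) or 3 (0.105), and in the fit of 2 groups (0.0582).

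A list of 7 miRNAs reported to target the p53 transcript had no call in the comparisons with day 0, with medians of 0.34 at day 7 and -0.12 in the diabetic group, against 0.08 and 0.04 over all miRNAs. Relative to day 7, 2 of the 7 were lower in the diabetic group, where 12.1% of all miRNAs were (median -0.39, against -0.02 over all). miR-125b-5p, the best known of them, had 1657 ± 51.9 CPM in the diabetic group and 2307 ± 111 CPM at day 7 (-0.48 ± 0.12, adjusted p = 0.0180, edgeR), and miR-30d-5p had 5599 ± 377 and 8371 ± 150 CPM (-0.58 ± 0.14, adjusted p = 0.0139, edgeR). Both directions turned with scaling by total counts, to 0.17 and 0.07, and with limma on TPM, to 0.16 and 0.05. Their calls held in 9 and 10 of 19 alternatives. Both were also lost when any of the 3 day 7 libraries, diabetic replicate 2 or diabetic replicate 3 was left out (adjusted p between 0.0508 and 0.127, edgeR), with upper-quartile scaling (0.106 and 0.068) and without the low-count filter (0.376 and 0.149), and miR-125b-5p with total counts without miR-21a-5p (0.0529).

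Markers of other cells moved with the same groups, where 8.05% of all miRNAs rose and 4.7% fell at day 7 against day 0, and 7.83% rose and 12.1% fell in the diabetic group against day 7. Of 6 myeloid and lymphoid miRNAs, 4 rose at day 7 against day 0 (median 1.05) and 5 fell in the diabetic group against day 7 (median -1.29). Among them miR-155-5p kept its calls in 13 and 6 of 19 alternatives, and the others in at least 17. Its diabetic call was lost with the replicate block (adjusted p = 0.0506, edgeR), on leaving out day 0 replicate 1 or any day 7 or diabetic library, and under further settings. Its day 7 call was lost on leaving out day 0 replicate 2 or day 7 replicate 1 or 2. That call was also lost with upper-quartile scaling (0.0505, edgeR), total counts (0.185, edgeR) and limma (0.165). The summed level of these 6 myeloid and lymphoid miRNAs was 711 to 908 CPM in the diabetic libraries and 833 to 1076 CPM at day 0. At day 7 it was 1686 to 2208 CPM, with the lowest in day 7 replicate 3. Of 7 keratinocyte miRNAs, 3 fell at day 7 against day 0 and 3 rose in the diabetic group against day 7, among them miR-141-3p named above, and their sum was 62160 to 88867 CPM in the diabetic group, 57149 to 61562 CPM at day 7 and 67984 to 81563 CPM at day 0. The day 7 calls of miR-429-3p, miR-200a-3p and miR-205-5p held in 16, 15 and 11 of 19 alternatives, and each was lost on leaving out the third day 0 library or either of the first 2 day 7 libraries. Of 3 erythroid miRNAs, 2 rose at day 7 against day 0 and 2 fell in the diabetic group against day 7, with sums of 701 to 1039 CPM in the diabetic group, 1608 to 2822 CPM at day 7 and 684 to 1328 CPM at day 0. At day 7 against day 0 the calls of miR-451a and miR-144-3p held in 10 of 19 alternatives each. They were lost on leaving out any one of day 0 replicates 2 and 3, day 7 replicates 1 and 2 and diabetic replicate 2 (adjusted p between 0.055 and 0.237, edgeR). Both were also lost with upper-quartile scaling (0.0838 and 0.069, edgeR), total counts (0.254 and 0.202, edgeR), total counts without miR-21a-5p (0.0975 and 0.086, edgeR) and limma (0.212 and 0.169). In the diabetic group against day 7 they held in 16 and 10, and both were lost when day 7 replicate 1 was left out. The call of miR-144-3p was also lost without day 0 replicate 2, day 7 replicate 2 or diabetic replicate 2 or 3. Settings other than leaving out a library lost both calls too. Of 4 fibroblast miRNAs, miR-199b-5p alone was called. It fell at day 7 against day 0, where the list median was -0.23. There miR-199a-3p and miR-199a-5p were also lower and miR-214-3p was higher (log2 fold change 0.12). It rose in the diabetic group against day 7, where the list median was -0.08. There miR-199a-3p was also higher (0.18), while miR-199a-5p (-0.34) and miR-214-3p (-0.49) were lower. Endothelial, nerve and striated muscle lists had no call, and no marker of any list was at 0 in all libraries. The part of these cells in the miR-34c-5p result was not tested. miR-21a-5p, the most abundant miRNA, took 16.6% ± 2.85, 49.6% ± 7.95 and 26.4% ± 7.34 of counts in the diabetic, day 7 and day 0 groups, and within day 7 it was lowest in replicate 3, at 40.6%, against 55.6% and 52.7%.

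Over the 9 libraries the miRNAs with levels most like miR-34c-5p, out of 307 with a mean of at least 10 CPM, were miR-142a-3p, its partner row miR-142b with identical counts in all 9 libraries, and miR-335-5p, with Pearson r of log2 CPM of 0.97, 0.97 and 0.96. miR-142a-3p, made in blood cells, stood at 173 ± 35.6 CPM in the diabetic group, 417 ± 60.2 CPM at day 7 and 202 ± 13.3 CPM at day 0. miR-335-5p, from an intron of the imprinted gene Mest, stood at 10.8 ± 3.29, 62.7 ± 31.0 and 14.6 ± 2.05 CPM. For miR-34a-5p the likeness was lower, with r of 0.81 for let-7e-5p, 0.78 for miR-322-3p and 0.77 for miR-542-3p. All these rows share the same libraries and scaling, so r describes these 9 libraries.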

How the data were processed

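Small RNA of 9 mouse skin libraries was made with an adaptor ligation kit and sequenced as single-end reads, per the labels' protocols. The authors deposited 1 table with a read count and a TPM per miRNA and library, per the file headers. The deposited TPM equal the count over the library total on a CPM scale, tested on the table, and are not divided by length. Per the submitters' processing notes, Bowtie, DESeq 3.0.3 and mm9 were used, in roles not named there. Trimming, strand and the handling of mismatched or multiple hits were not given in the sources used here. Columns headed T0 were assigned to titles reading T7 through the shared letter T and replicate number.

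Counts were tested with edgeR 4.0.16 in R 4.3.3 (TMM, filterByExpr at its settings of 10 counts and 15 in total, quasi-likelihood F test, 1 fit of 9 libraries), which was tested on simulated data. The filter asks for about 2.54 CPM in at least 3 libraries. miR-34b-3p met it in day 7 and day 0 libraries and in none of the diabetic ones, miR-34c-3p in 2 day 7 libraries and 1 day 0 library, and miR-34b-5p in only 2 libraries. SEs were taken from the F statistic. Within-library ratios were compared by exact permutation tests. Alternatives were 3 other scalings and a total without miR-21a-5p, DESeq2 1.42.0, limma 3.58.1 on log2(TPM + 1), other filters, fits of 2 groups, a replicate block and leaving out each library.

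Replicates of a group differed far beyond sampling noise (chi-square per degree of freedom of 155 to 1291). Same-numbered libraries deviated together from their group means in 9 of 9 pairs (correlations of 0.102 to 0.484), by the criterion of 0.1. The lowest, replicate 1 of the diabetic and day 0 groups, met it narrowly. In 8 of 9 pairs the best-correlated library had the same number, and that pair was the exception. A pairing by number thus rests on the data alone and is not settled. Members and lists were chosen with earlier results of these data known. All 5 members are named, with miR-34a-3p and miR-449, list members that were called, and for likeness the 3 rows with the highest correlation.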

Additional observations from a re-analysis of the deposited data

How the results depend on the processing

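With the replicate number as a block no member gained or lost its call, and miR-34c-5p gave 1.69 for day 7 against day 0. An exact paired sign-flip test of the ratio of miR-34c-5p to miR-34a-5p gave p = 0.25 in each comparison, the smallest it allows. That ratio kept its sign in every comparison under each alternative. Leaving out 1 library gave differences of 1.28 to 1.90 for day 7 against day 0 and -0.99 to -0.63 for the diabetic group against day 0. For the diabetic group against day 7 the differences were -2.73 to -2.11. The exact permutation p over the 3 groups, which treats libraries as unpaired, ran from 0.00357 to 0.0107.

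Over all miRNAs, 57 were called at day 7 against day 0 (36 higher, 21 lower). Scaling by total counts gave 133 (16 and 117), limma on TPM 139 (17 and 122), total counts without miR-21a-5p 36 (29 and 7), upper-quartile scaling 60 (26 and 34), and leaving out 1 library 19 to 68. The fits lacking day 0 replicates 2 and 3 made 27 and 22 calls, and those lacking day 7 replicates 1 and 2 made 19 and 23. Scaling by total counts set the median log2 fold change at -0.46, limma at -0.42 and upper-quartile scaling at -0.12, against 0.08 under TMM. In the diabetic group against day 7 the 89 calls (35 higher, 54 lower) became 198 with total counts (174 and 24) and 194 with limma (170 and 24). Leaving out 1 library gave 49 to 101, with 49 and 59 without day 7 replicates 1 and 2 and 52 without diabetic replicate 2. Upper-quartile scaling gave 45 higher and 41 lower.

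Against day 0 the diabetic group had 0 calls. There was 1 call, miR-342-3p, with upper-quartile scaling, total counts, limma, a mean of at least 10 CPM and the replicate block. DESeq2 made 5 (miR-342-3p, miR-34b-3p, miR-135b-5p, miR-21a-3p and miR-98-5p) and the fit without the low-count filter 10. Leaving out 1 library gave 0 to 2, with miR-135b-5p called without day 0 replicate 1, and miR-342-3p and miR-34b-3p without day 7 replicate 3. These other miRNAs are named after their values were seen.

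The sign of miR-34a-5p at day 7 against day 0 turned under several settings, at -0.0035 with size factors of the median-of-ratios kind, -0.12 with upper-quartile scaling, -0.45 with total counts, -0.0024 with DESeq2, -0.46 with limma and -0.036 without the low-count filter, and ran from -0.15 to 0.16 when 1 library was left out. miR-125b-5p and miR-30d-5p, both called lower in the diabetic group against day 7, turned to 0.17 and 0.070 with total counts and to 0.16 and 0.055 with limma. The cause was not tested. Depth limits miR-34b-5p, miR-34b-3p and miR-34c-3p, whose counts per library were at most 41.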
